A study of Aspergillus luchuensis with 6 samples.

Results

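Aspergillus luchuensis is a koji mould that is grown on steamed rice for Japanese distilled spirits. Its secreted amylases and glucoamylase break rice starch down to sugars, while its growth on the grain draws on a large set of genes for energy metabolism, protein synthesis, secretion and cell wall building that are transcribed at intermediate to high levels. The 36 locus tags described here are well expressed transcripts of unknown function that stood moderately higher in the mutant strain U1. A locus tag is the running identifier of a gene in a genome annotation.

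RNA from rice koji of U1, which the labels call a high starch degrading mutant on the background of strain RIB2601, was sequenced in 3 libraries, and RNA from koji of the wild type RIB2601 in 3 libraries. The series title traces the mutant to ion beam mutagenesis. The labels give neither the time in culture nor the medium beyond rice koji, nor whether replicates are separate koji batches, so the spread given below may be technical. Between koji samples, fewer cells of a type and less RNA per cell cannot be told apart.

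The 36 tags were chosen out of 11488 by their counts in these same libraries. Each count was divided by the library total and multiplied by 1000000 to give CPM, counts per 1000000 counts. A tag was taken when its wild-type mean was 200 to under 1000 CPM, its U1 mean was at least 33% and less than 100% above the wild-type mean, and every U1 library lay above every wild-type library. Tags AKAW_05980 to AKAW_06045 were left out. The higher level in U1 is therefore what put a tag in the set, and the levels and ratios below describe the tags and are no test of them. The deposited counts carry no gene names, and 0 of the 11488 tags occur in the reference table of 12941 genes used here, so no function can be given to any of them, no marker list could be filled, and no sequence is shown.

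Library totals ran from 4427719 to 8420828 counts in U1 and from 4025119 to 5064126 counts in wild type. Each of the 36 tags had at least 1186 and at most 8973 reads in a U1 library, and 733 to 4075 reads in a wild-type library. Counting error alone was thus 1.06% to 2.9% of a value in U1 and 1.57% to 3.69% in wild type.

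The 36 tags had ratios near the upper end among tags of their wild-type level, most of which differed by under 33% between the strains. In the same wild-type range there were 892 tags. In 5 of these the U1 mean was 100% or more above the wild-type mean, in 36 (4.04%) it was 33% to under 100% above it, and in 490 (54.9%) it was above it by less. On the other side, the wild-type mean exceeded the U1 mean by under 33% or equalled it in 277 tags (31.1%), by 33% to under 100% in 62, and by 100% or more in 22. Within this range, moderately higher tags were thus fewer than moderately lower ones, of which 61 had all U1 libraries below all wild-type libraries. This balance is that of the range alone. The range was set on the wild-type level, and what that does to the balance was not tested. In the edgeR test (adjusted p under 0.05), 11.4% of all tested tags were higher in U1 and 13.1% lower, against 7.96% and 21.5% in the range. On library totals, the scale of these counts, the median ratio of U1 over wild type in the 892 tags was 1.03. The side of equal level on which the median lies turned with scaling: with the trimmed-mean (TMM) factors of the edgeR fit, the median log2 difference of the 892 tags was -0.03. The condition on separation removed no tag, since all 36 tags in the ratio range had their lowest U1 library above their highest wild-type library. Separation in this direction held for 225 (25.2%) of the 892 tags and for 26.1% of the 8790 tags that entered the test across all tags.

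**Figure D1:**
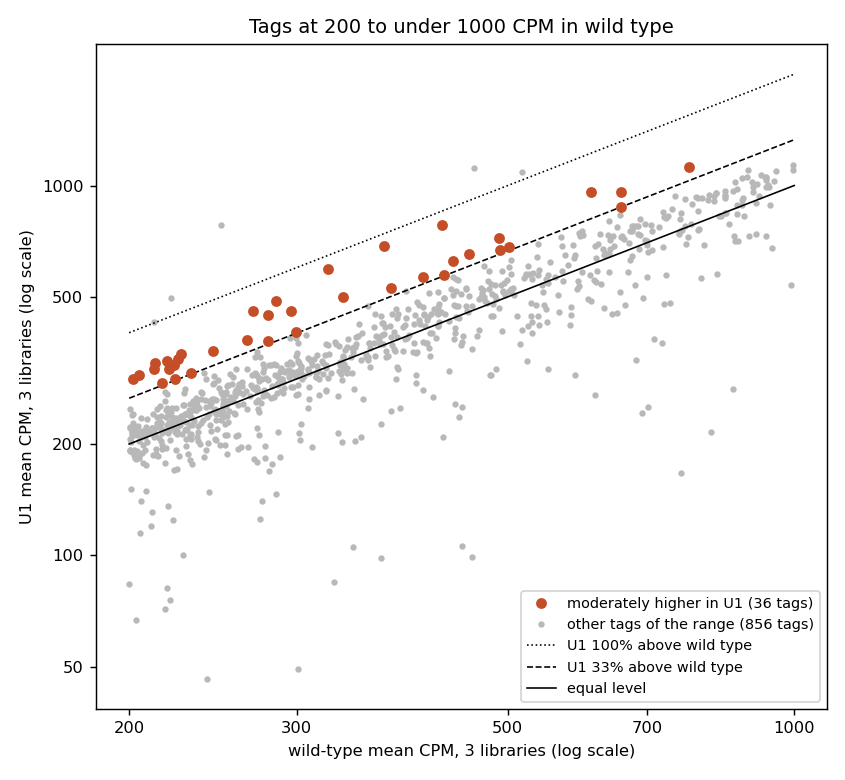
Mean CPM in U1 (vertical axis) against mean CPM in wild type (horizontal axis), both log scales, for the 892 tags at 200 to under 1000 CPM in wild type, each point a tag and each mean over 3 libraries. The 36 tags of the set (orange) lie between the dashed line (33% above wild type) and the dotted line (100% above), and most of the other 856 points (grey) lie near the line of equal level.

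Summed over the set, the tags took 1.87% ± 0.0473 of all counts in U1 and 1.26% ± 0.0173 in wild type (SD, n = 3 each). The summed level was 18222, 18711 and 19167 CPM in U1 replicates 1 to 3, against 12669, 12387 and 12702 CPM in wild-type replicates 1 to 3. The ratio of the mean sums was 1.49. No single transcript carried the sum. The largest share of 1 tag in the summed difference of 6115 CPM was 5.78%, and the 5 tags with the largest differences together gave 27.3% of it.

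Levels of the single tags in U1 ran from 292 to 1120 CPM with a median of 457.5, against 202 to 775 CPM with a median of 291 in wild type. The lower end of the range held most of the set. There were 13 tags at 200 to under 250 CPM in wild type, 7 at 250 to under 300, 11 at 300 to under 500 and 5 at 500 to under 1000, out of 246, 148, 271 and 227 tags of the series in these classes. By mean level among all tags, the set had a median rank of 382 in U1 and of 636 in wild type. The ratio of means, U1 over wild type, had a median of 1.47 and a maximum of 1.86. It was under 1.4 in 11 tags, 1.4 to under 1.5 in 11, 1.5 to under 1.6 in 9, and 1.6 or more in 5.

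**Figure D2:**
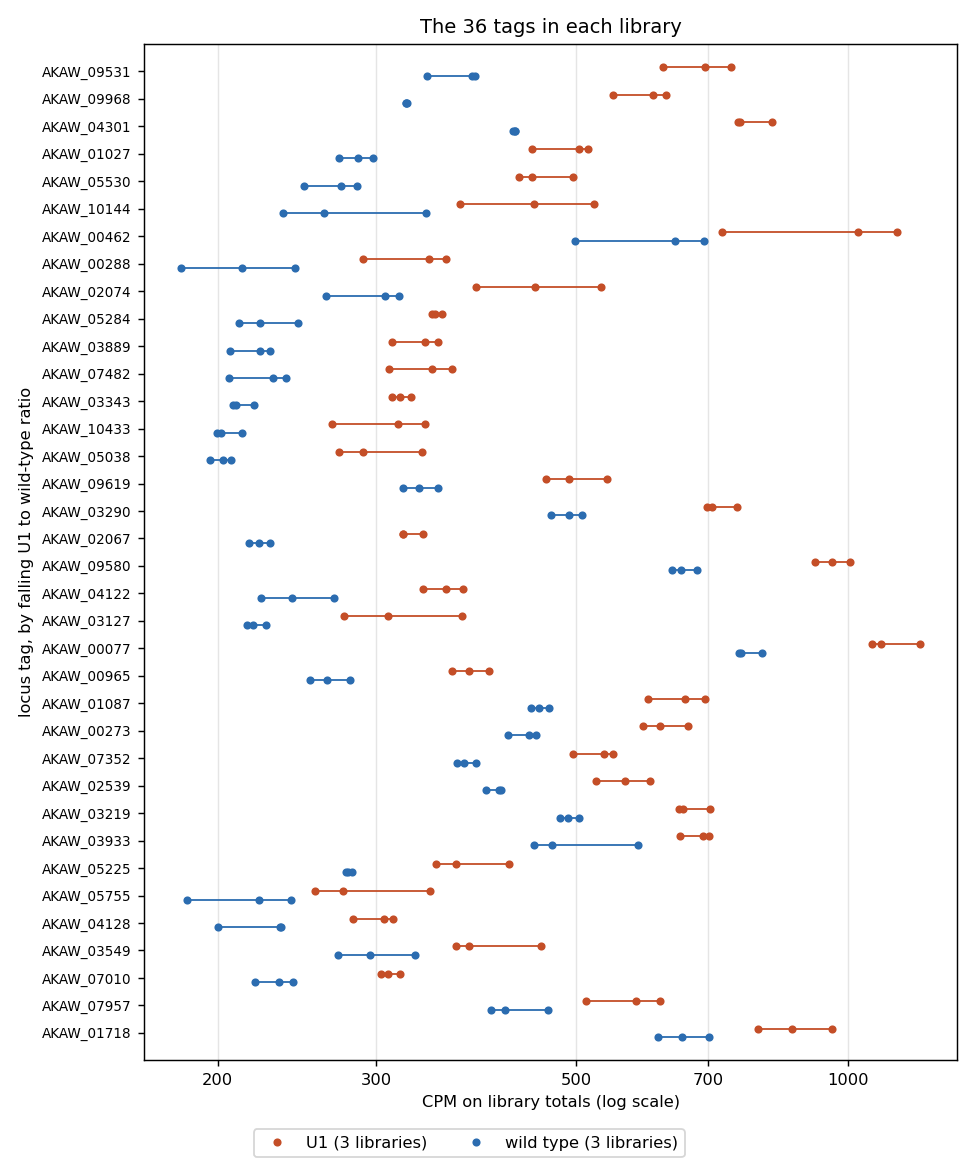
CPM of the 36 tags on a log scale, each point a library, with U1 in orange and wild type in blue, and a line from the lowest to the highest library of a strain. Tags run from the highest ratio of means (1.86, top) to the lowest (33% above wild type, bottom). No orange line meets its blue line, as the choice requires, and the gap is narrowest for AKAW_00462, AKAW_05755 and AKAW_10144.

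The highest ratios, 1.83 to 1.86, belonged to 3 tags, and the next ratio was 1.71. AKAW_09531 had 624, 695 and 742 CPM in U1 replicates 1 to 3, against 383, 341 and 386 CPM in wild-type replicates 1 to 3. AKAW_09968 had 608, 629 and 549 CPM in the U1 libraries, against 324 CPM in each wild-type library. AKAW_04301 had 756, 824 and 760.4 CPM in U1, against 427, 425 and 428 CPM in wild type. The groups were far apart in all 3 tags, the lowest U1 library being 1.62, 1.69 and 1.77 times the highest wild-type library.

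On the log2 scale of the edgeR fit, which uses TMM factors, these 3 differences were 0.82 ± 0.081, 0.81 ± 0.076 and 0.80 ± 0.073 (SE), so their order is within the error. AKAW_01027 followed with 447, 515 and 503 CPM in U1, against 287, 273 and 298 CPM in wild type (log2 difference 0.70 ± 0.074). AKAW_05530 had 447, 432 and 496 CPM in U1, against 274, 285 and 249.7 CPM in wild type (log2 difference 0.69 ± 0.081). These 2 tags also lay close to each other and within about 1 SE.

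The sixth tag by ratio was less steady. AKAW_10144 had 449, 371 and 524 CPM in U1, against 341, 262 and 236 CPM in wild type, a ratio of 1.5999. Its lowest U1 library, replicate 2, was 1.09 times its highest wild-type library, replicate 1, and its log2 difference had an SE of 0.15.

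At the other end, the U1 mean of 4 tags was 33% to 34.2% above the wild-type mean. AKAW_01718 had 796, 961 and 867 CPM in U1, against 617, 654 and 701 CPM in wild type. AKAW_07957 had 512, 619.8 and 583 CPM in U1, against 402, 417 and 465 CPM in wild type. AKAW_07010 stayed closer together within each strain, at 319, 309 and 304 CPM in U1 against 220.2, 234 and 242 CPM in wild type. AKAW_03549 had 368, 381 and 457 CPM in U1, against 332, 295 and 272 CPM in wild type. The fitted log2 differences of these 4 were 0.34 to 0.35 with SE of 0.070 to 0.093, and they could not be told from one another.

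The most abundant tags of the set were not those with the highest ratios. AKAW_00077 had 1066, 1091 and 1205 CPM in U1, against 805, 759 and 763 CPM in wild type. It was the only tag of the set with a U1 mean above 1000 CPM (1120 CPM), and ranked 86th by level in U1, against 179th in wild type. AKAW_09580 had 1006, 921 and 961 CPM in U1, against 639, 681 and 654 CPM in wild type, and ranked 127th in U1, against 239th in wild type. AKAW_01718, among the lowest ratios, and AKAW_00462 were the other tags above 600 CPM in wild type.

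The choice has sharp bounds in a distribution without gaps at the lower one. Just outside the lower bound of the ratio, AKAW_09823 at 1.324 and AKAW_02889 at 1.322 met every other condition, next to AKAW_01718 and AKAW_07957 at 1.3303 and 1.3349 inside. At the upper bound the set ended with AKAW_09531 at 1.86 and AKAW_09968 at 1.84, while AKAW_04290 at 2.01 and AKAW_10935 at 2.10 were outside. AKAW_04290 had a wide spread in U1, at 428 ± 177 CPM (SD, n = 3). At the lower bound of level, AKAW_05038 and AKAW_10433 at 202 and 205 CPM in wild type were inside, and AKAW_09375 and AKAW_03238 at 198 and 194 CPM outside. At the upper one, AKAW_00077 and AKAW_09580 at 775 and 658 CPM in wild type were inside, and AKAW_03789 and AKAW_03283 at 1009 and 1176 CPM outside.

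In the fit across all tags the 36 tags had log2 differences of 0.34 to 0.82, with a median of 0.48 beside 0.01 over all 8790 tested tags and -0.03 over the 892 tags of the range. All 36 had an adjusted p under 0.05 in the edgeR quasi-likelihood test (Benjamini-Hochberg adjustment over 8790 tags), beside 11.4% of all tested tags and 7.96% of the 892 called higher in U1. In the opposite direction, 192 (21.5%) of the 892 tags were called lower in U1. Among the fits that left out 1 library, the count was lowest, at 33, without wild-type replicate 2, and highest, at 35, when U1 replicate 1 was the library left out. It was 32 at an adjusted p under 0.01 with all libraries. The choice used this contrast, so nothing is read from these counts. Of the 71 tags called higher in the range, 36 were in the set, 4 had a ratio of 2 or more, and 31 were less than 33% above wild type.

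How libraries are scaled set which tags were in the set. TMM factors, which correct library sizes for shifts in composition, ran from 1.003 to 1.043 in U1 and from 0.97 to 0.983 in wild type. On TMM-scaled sizes the ratios of the 36 tags were 1.26 to 1.76 with a median of 1.39. The same bounds then gave 28 tags, of which 25 were among the 36. The 11 tags that dropped out had ratios under 1.4 on library totals, and the 3 that came in were AKAW_04290, AKAW_09375 and AKAW_10935, each just outside a bound before. With library totals the median log2 difference of all tested tags was 0.077, against 0.005 with TMM, and that of the 36 tags 0.55 against 0.48. With library totals 15.8% of all tested tags were called higher in U1, against 11.4% with TMM, and rises made up 60.6% of all calls, against 46.5%.

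Because the full set was chosen on all 6 libraries, the rule was also applied without 1 library of each strain and the ratio read in the 2 libraries left out, which the choice had not used. In the 9 such combinations 33 to 47 tags were chosen, 29 to 32 of them among the 36. In the left-out libraries their median ratio was 1.3 to 1.5, against 1.44 to 1.49 in the 4 libraries that chose them. All tags of the range had medians of 1.01 to 1.03 in the same pairs of libraries. The left-out U1 library was above the left-out wild-type library in 91.5% to 100% of the chosen tags, beside 51.8% to 58.5% of all tags of the range. A U1 value at least 33% above the wild-type value was seen again in 46.8% to 84.8% of them, beside 4.71% to 8.63% of the range. The lowest values came from leaving out U1 replicate 1 with wild-type replicate 3, where 22 of 47 tags reached 33% again. The combinations share libraries and are not independent of one another. The set was also proposed with earlier results of these data known. These values therefore describe the tags and are no independent test of them.

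**Figure D3:**
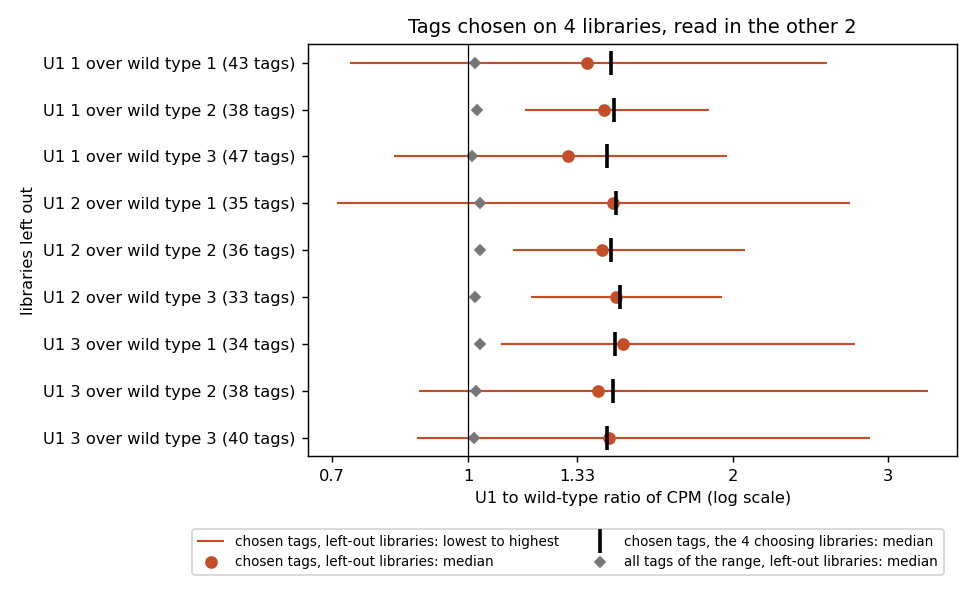
U1 to wild-type ratio of CPM (log scale) in 1 U1 and 1 wild-type library that were left out when tags were chosen on the other 4, for all 9 combinations. Orange points and lines give the median and the lowest to highest chosen tag, black bars the median in the choosing libraries, and grey diamonds the median of all tags of the range, which stays at 1.01 to 1.03 while the orange medians lie at 1.3 to 1.5.

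Within a strain, the tags of the set varied about as much as other tags of their level. The coefficient of variation (CV, SD over mean) had a median of 7.13% over the U1 libraries and of 4.67% over the wild-type libraries, beside 6.53% and 4.26% for the 892 tags of the range. It was larger in U1 for 27 of the 36 tags (75%) and for 73.0% of the 892 tags. No difference in spread was tested here. Counting alone would give a median CV of 1.95% in U1 and 2.79% in wild type, and 35 tags in U1 and 28 in wild type exceeded the CV expected from their own counts.

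The largest spread was found in 3 tags. AKAW_00462 had 726, 1027 and 1136 CPM in U1, against 644, 498 and 693 CPM in wild type, with a CV of 22% in U1 and 16.6% in wild type. Its U1 replicate 1 was only 1.05 times its wild-type replicate 3. AKAW_10144 had CVs of 17.0% and 19.4% in U1 and wild type. AKAW_05755 had 256, 275 and 344 CPM in U1, against 242, 185 and 223 CPM in wild type, and its lowest U1 library was 1.06 times its highest wild-type library. These were the only 3 tags of the set with a gap under 1.1 times, while in 11 tags the lowest U1 library was at least 33% above the highest wild-type library.

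The steadiest tags were AKAW_04301, AKAW_03343 and AKAW_02067. AKAW_03343 had 312, 318 and 328 CPM in U1, against 209.7, 219 and 208 CPM in wild type. AKAW_02067 had 338, 321 and 322 CPM in U1, against 217, 229 and 222 CPM in wild type. In both, the strains differed by far more than the libraries of either strain. AKAW_04301 combined a small spread, with CVs of 4.91% in U1 and 0.285% in wild type, with a ratio of 1.83.

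**Figure D4:**
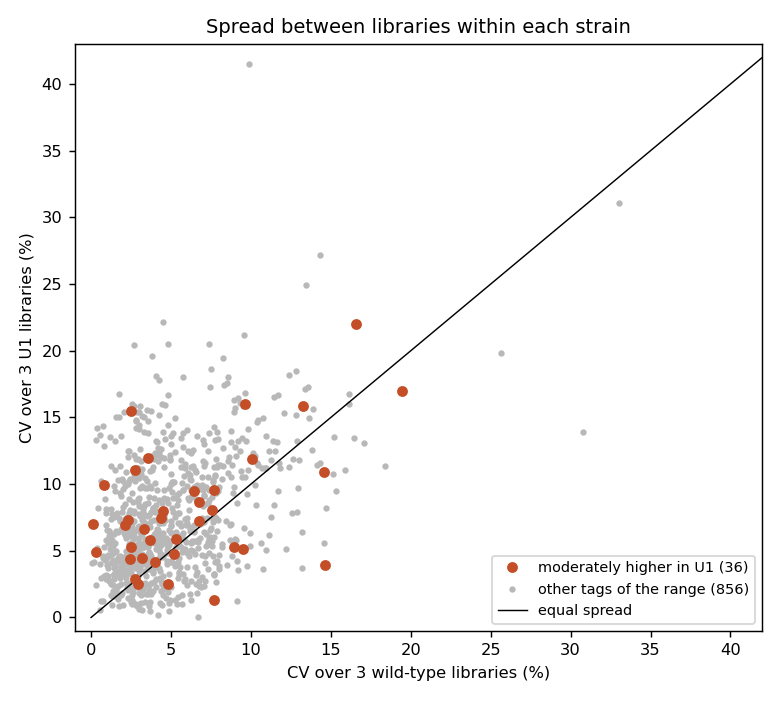
CV over the 3 U1 libraries (vertical axis, %) against CV over the 3 wild-type libraries (horizontal axis, %), each point a tag, with the 36 tags in orange and the other 856 tags of the range in grey. The orange points lie among the grey ones, 27 of the 36 above the line of equal spread, and AKAW_00462 is the highest orange point at 22% in U1.

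No U1 library was the highest in most of the set. The highest U1 library was replicate 1 for 13 tags, replicate 2 for 10 and replicate 3 for 13, and the lowest was replicate 1 for 15, replicate 2 for 11 and replicate 3 for 10. Against the mean of its strain, the median tag of the set lay at -0.03 in U1 replicate 1, -0.006 in replicate 2 and 0.01 in replicate 3 on the log2 scale. U1 replicate 1 had the largest library total and the lowest summed level of the 3, at 18222 CPM, still above the highest wild-type sum of 12702 CPM. Replicate 3 was the highest U1 library in 36.1% of the set and in 24.4% of the 892 tags of the range.

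The tags lay scattered along the tag numbers, which the choice did not use apart from the stretch left out. No 2 tags of the set were next to each other or had only 1 number between them. The closest pairs were AKAW_04122 with AKAW_04128, 6 numbers apart, and AKAW_02067 with AKAW_02074, 7 apart, and the median step from 1 tag of the set to the next was 189 numbers. Among the 61 moderately lower tags of the same range, 10 were in pairs with at most 1 number between them. In blocks of 1000 numbers, the set held 2 to 7 tags in each block up to 11000 except for the blocks from 6000 and from 8000, which held 0 tags of the set and 83 and 89 tags of the range. Between AKAW_07957 and AKAW_09531 there were 132 tags of the range and none of the set. Whether neighbouring numbers are neighbours on a chromosome was not examined, since no genome of these tags was used.

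Tags with the next lower or higher number are different transcripts, and none of them was itself in the set. Of 72 such tags 62 were tested, and 15 (24.2%) were called higher and 7 (11.3%) lower in U1, beside 11.4% and 13.1% of all tested tags. Their median log2 difference was 0.10, beside 0.01 over all tested tags. At 2 numbers away 6 of 66 tested tags (9.09%) were called higher, at 3 away 12 of 62 (19.4%), at 4 away 4 of 56 (7.14%), and at 5 away 5 of 57 (8.77%). For the moderately lower tags, the next tags were called higher in 7 of 92 (7.61%) and lower in 24 (26.1%). The share of the next tags called higher was 12.9% at an adjusted p under 0.01, beside 7.21% of all tested tags. With library totals it was 32.3%, beside 15.8% of all tested tags. It was 14.5% without wild-type replicate 1, beside 8.89% of all tested tags. Reads shared between overlapping neighbours cannot be told apart in these counts, and their part in these values was not tested.

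**Figure D5:**
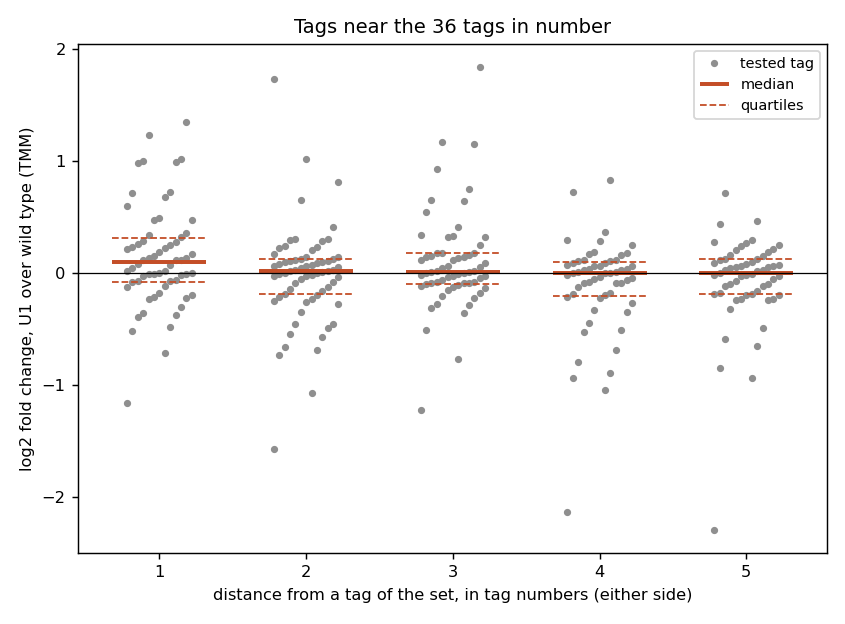
Log2 difference of U1 over wild type (TMM scaling) of the tested tags that lie 1 to 5 tag numbers from a tag of the set, each grey point a tag, with the median (thick line) and the quartiles (dashed). The median is 0.10 at 1 number away and 0.02 or less at 2 to 5 numbers away.

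The 15 next tags called higher stood beside 15 different tags of the set, and none of the set had one on both sides. All 15 were below 200 CPM in wild type, as were most tested tags, whose wild-type means had an upper quartile of 104 CPM. No next tag met the rule itself, so none was kept out of this count. Of the 15, 9 differed more than the tag they stood beside, whose ratio the rule had capped. Neither count was compared with other called tags, so nothing is read from them. The 15 next tags are described here because they passed the test. Of them 3 are named, with 2 of the lower ones, picked after their values were seen. AKAW_05754, beside AKAW_05755, had 186, 192 and 259 CPM in U1, against 93.6, 73.8 and 88.9 CPM in wild type, with a log2 difference of 1.23 ± 0.13 (SE; edgeR adjusted p = 9.41e-06). In both tags of that pair U1 replicate 3 was the highest library and wild-type replicate 2 the lowest. This was not so in every pair. The highest U1 library and the lowest wild-type library were both replicate 1 in AKAW_03933 and both replicate 3 in AKAW_03934 beside it. Such sharing was not counted over the 15 pairs.

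AKAW_10143, beside AKAW_10144, had 127, 142 and 162 CPM in U1, against 93.4, 77.0 and 74.8 CPM in wild type (log2 difference 0.73 ± 0.099, edgeR adjusted p = 2.74e-05). AKAW_03934, beside AKAW_03933, had 41.8, 42 and 46.1 CPM in U1, against 25.1, 28.0 and 23.6 CPM in wild type (log2 difference 0.68 ± 0.11, edgeR adjusted p = 0.000147). The groups did not overlap in either.

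Some neighbours moved the other way. AKAW_03550, beside AKAW_03549, had 49.6, 70.6 and 71.8 CPM in U1, against 150.5, 126 and 125 CPM in wild type, and fell by 1.16 on the log2 scale (SE 0.12, edgeR adjusted p = 8.07e-06). AKAW_03933 had a called tag on each side, AKAW_03934 higher and AKAW_03932 lower by 0.72 on the log2 scale (-0.72 ± 0.20, edgeR adjusted p = 0.0156).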

How the data were processed

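Raw counts per locus tag, not normalized, were deposited by the authors, with 1 table for each library. The submitters' processing notes name Trimmomatic 0.32 and BWA 0.7.12. The counter, build, annotation and strandedness were not given in the sources used here, and reads of similar or overlapping genes cannot be separated.

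Libraries of a strain differed by more than sampling noise (chi-square over degrees of freedom 2.15 to 7.46 for tags with at least 10 summed reads), so all 6 were counted. CPM was the count over the library total, times 1000000. All tags kept by filterByExpr (8790) were fitted with edgeR 4.0.16 in R 4.3.3, using limma 3.58.1, TMM factors and a robust two-sided quasi-likelihood test of strain, adjusted over all tested tags. SE is the fold change over the root of F. The code was tested on simulated data. DESeq2 1.42.0 gave alternatives. Intervals of counting error do not cover the spread between libraries.

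The members and the rule for naming them were chosen with earlier results of these data known. Named are the 6 highest and 4 lowest ratios, the 4 highest wild-type means, the 3 largest and 3 smallest spreads, the tags nearest to each bound, and tags in close stretches, of which there were 0.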

Additional observations from a re-analysis of the deposited data

How the results depend on the processing

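Counting the tags next in number, and scaling in the spread, were chosen after seeing the data. All 36 tags were called higher with DESeq2 size factors, library totals, upper-quartile scaling, the replicate block and DESeq2's Wald test, 35 without a filter on low counts, 32 at an adjusted p under 0.01, and 33 to 35 when 1 library was left out. Their median log2 difference was 0.55 with library totals, against 0.48, and 0.47 to 0.51 with 1 library left out. The rule gave 56 tags from a U1 mean 25% above wild type, 14 from a ratio of 1.5, 57 from a wild-type mean of 150 CPM and 16 from 300 CPM, against 36, and 33 to 38 with 1 library left out. Leaving out 1 library of each strain gave median ratios of 1.3 to 1.5 in those libraries, against 1.47. Of all tags, 1416 were called at an adjusted p under 0.01, 634 of them higher, against 2153 and 1002, and 1625 to 2069 with 1 library left out. At that threshold 8 next tags were called higher and 3 lower, against 15 and 7. DESeq2's Wald test called 4 of them lower. With 1 library left out 9 to 14 were higher and 4 to 7 lower, 9 and 4 without wild-type replicate 1 and 4 lower without U1 replicate 1, and the cause was not tested. Rises were 60.6% of all calls under library totals, against 46.5%. The replicate block called 2091 tags. Deviations from the strain mean correlated at -0.04, -0.0005 and -0.07 between same-numbered libraries. For U1 replicates 1 to 3 the highest correlations were 0.11, 0.14 and 0.17, with wild-type replicates 2, 3 and 1. With 3 libraries per strain centred on their own mean, these values cannot show whether libraries are paired. The labels do not say whether they are. The choice required every U1 library above every wild-type library, so agreement of the 36 tags across settings was built in. Nothing is read from it. The 16 tags named for ratio, wild-type mean or spread were checked singly, and other named tags were not. These 16 passed in 193 of 208 checks (refits or the threshold of 0.01), with the same direction in all. In the other 15 the call was lost by AKAW_05755 (without U1 replicate 2 or 3 or wild-type replicate 2 or 3, and at 0.01), AKAW_03549 (without U1 or wild-type replicate 3, and at 0.01), AKAW_10144 (without U1 replicate 1 or wild-type replicate 2, and at 0.01), AKAW_00462 (without U1 replicate 2, without a filter, and at 0.01) and AKAW_01718 (without wild-type replicate 1). At these depths counting error was at most 3.69% of a value.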
